A study of Homo sapiens with 10 samples.

Results

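The RNAs of 9 genes that encode titin and its partners at the Z-disc and the M-band were followed in cardiomyocytes after a knockdown. They are TTN, TCAP, LDB3, ACTN2, MYOZ2, CSRP3, NEBL, MYOM1 and MYOM2, chosen by name as 9 of the 78932 gene identifiers counted. All 9 had enough counts to be tested, among 21033 tested genes. The cells were cardiomyocytes made by differentiation of H1, a long-established line of human embryonic stem cells. The 5 control libraries, labelled WT, came from cells given a control GapmeR. The 5 knockdown libraries came from cells given a GapmeR against the RNA named CLIPPER. GapmeRs are short antisense oligonucleotides with a DNA core, which lets RNase H cleave the RNA they bind. Both sets of cells were transfected while beating on day 9 of differentiation with 50 nM oligonucleotide and a lipid reagent, and were collected 48 hours later. All 10 libraries therefore share the cell line and the stated conditions of differentiation and transfection, and no untransfected cells were analysed here. The level of CLIPPER itself is not analysed here, so no check of the labels by the target was made.

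The sarcomere, the contractile unit of the heart muscle cell, is bordered by Z-discs, where actin filaments of opposite direction are anchored, and centred on the M-band, where myosin filaments are tied together. Titin, the largest known human protein, runs from the Z-disc to the M-band as a spring and as a scaffold. At the Z-disc it is held by alpha-actinin and by telethonin, the titin cap, and at the M-band by myomesins. Mutations in several of these genes cause dilated or hypertrophic cardiomyopathy.

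In the knockdown libraries 7 of the 9 RNAs were lower, 1 was higher and 1 did not pass the test. TTN, LDB3, ACTN2, NEBL and MYOM1 were 3.52-fold to 4.68-fold lower, MYOM2 was 2.18-fold lower and MYOZ2 1.47-fold lower. TCAP rose 4.76-fold. CSRP3 did not pass (log2 fold change -0.63, adjusted p = 0.126 in edgeR's quasi-likelihood test). The background to these counts is wide. Of all tested genes 79.7% passed the same test, 39.6% as lower and 40.1% as higher. Under upper-quartile scaling the 8332 lower and 8441 higher genes became 7277 and 9566, so this split depends on the scaling. A fall of at least 2-fold, seen in 6 of the 9, was called in 24.2% of tested genes, and a rise of that size, seen in TCAP, in 24.3%. The median log2 fold change was -1.81 for the 9 and 0.0056 for all tested genes. In bulk RNA, fewer cardiomyocytes and less of these RNAs per cardiomyocyte cannot be told apart.

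**Figure D1:**
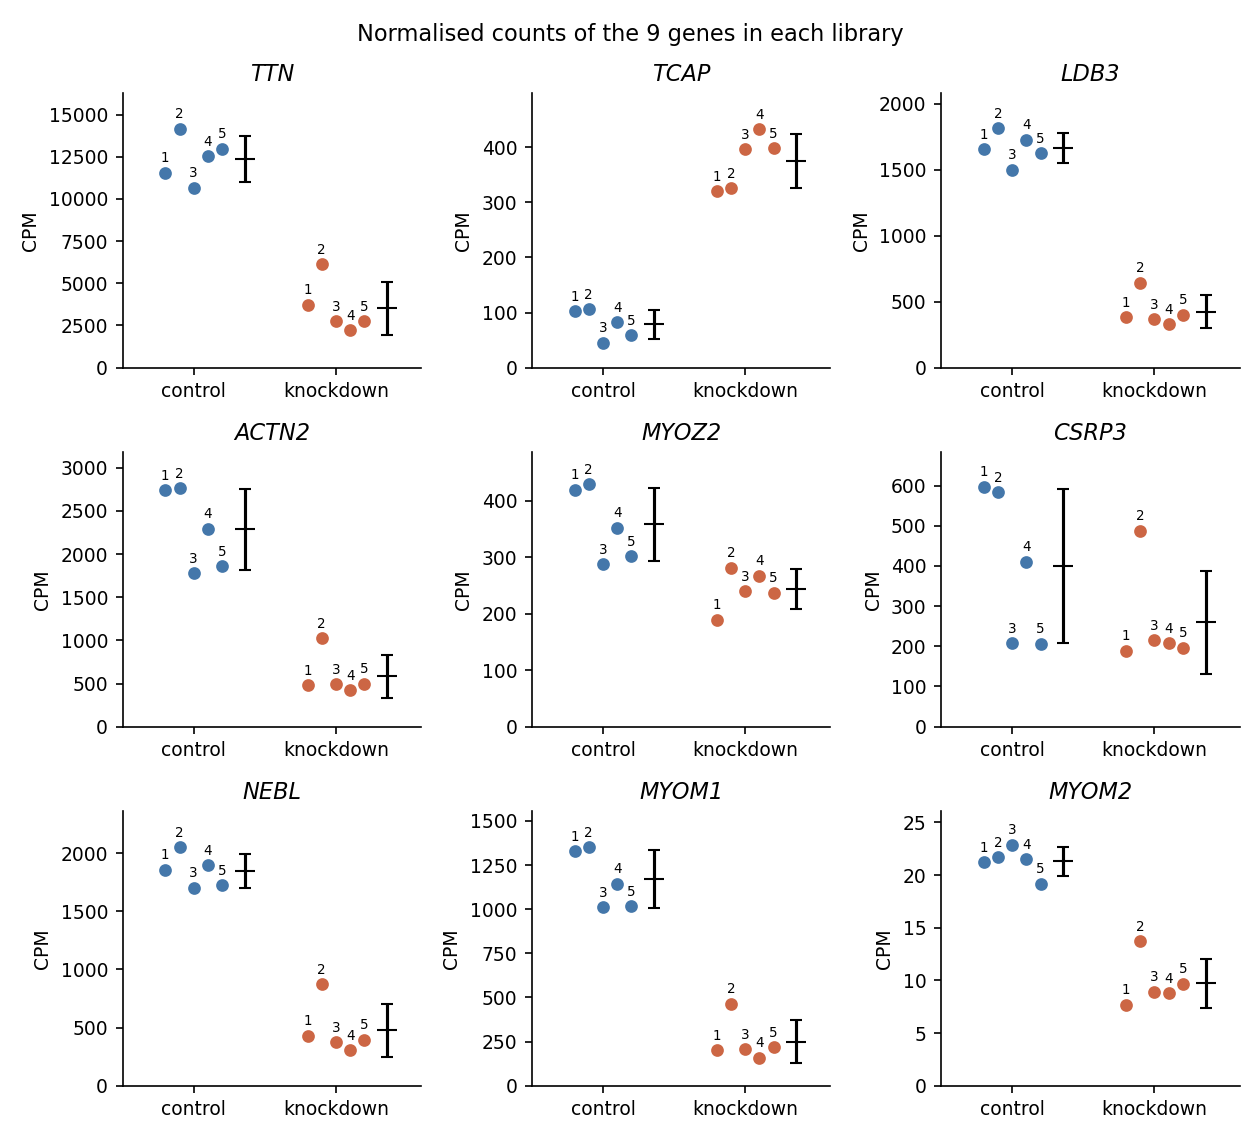
Normalised counts per 1e6 counts (CPM, vertical axis from 0) of each of the 9 genes in the 5 control (blue) and 5 knockdown (red) libraries. Digits beside points are replicate numbers, and bars show mean ± SD (n = 5). TCAP is the gene with all knockdown libraries above all controls, and knockdown replicate 2 is the highest knockdown library for the other 8 genes.

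The libraries held between 32.9 and 45.1 times 1e6 counts. On the first principal component of all genes, which held 90.7% of the variance, knockdown replicate 2 (39.9) and then replicate 1 (79.1) lay nearest to the controls (-92.5 to -87.8), with the other knockdown libraries at 103 to 123. The share of counts from mitochondrial genome genes was 11.3% ± 0.865 in controls and 14.4% ± 2.99 after the knockdown (SD, n = 5), with p = 0.0952 in a two-sided exact permutation test. Each count of markers here is to be read against the 39.6% lower and 40.1% higher of all tested genes. Of 10 cardiomyocyte markers, TNNT2 and MYH6 among them, all were tested and 9 were lower. Their levels summed to 30517 to 48228 CPM in controls and to 11554 to 21452 CPM after the knockdown, so the label cardiomyocyte is met in both groups. Markers of other cell types were present at lower sums. Smooth muscle markers summed to 1544 to 2811 CPM in controls and 557 to 1015 CPM after the knockdown, and all 6 were lower. Fibroblast and stromal markers summed to 1261 to 1381 and 951 to 1118 CPM, with 4 of 8 lower and 2 higher. Endothelial (29.9 to 50.8 and 11.1 to 17.8 CPM) and epicardial sums (5.48 to 6.95 and 2.27 to 4.19 CPM) were also smaller in the knockdown, with 2 of 4 and 3 of 3 tested markers lower. Pluripotency markers (0.942 to 1.86 and 4.27 to 7.27 CPM) and endoderm markers (7.09 to 8.8 and 12.7 to 26.6 CPM) had larger sums there, with 3 of 4 tested markers (LIN28A, DPPA4 and ZFP42) and 2 of 3 (APOA1 and CXCR4) higher. NANOG, FOXA2 and TTR had fewer than 10 counts over all 10 libraries. The part of these shifts in the results below was not tested.

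Promoter sequences from RefSeq (GRCh38.p14) were at hand for 6 of the 9 genes, TTN, LDB3, ACTN2, MYOZ2, NEBL and MYOM1. They are shown for 4 genes that fell by different amounts, as the 170 bases before the RefSeq start, written 5′ to 3′ on the strand of the gene. Capitals mark a match to the MEF2 motif (in TTN and MYOZ2) or to the CArG box, the motif of serum response factor (in MYOM1).
TTN, chr2:178807424-178807593, minus strand: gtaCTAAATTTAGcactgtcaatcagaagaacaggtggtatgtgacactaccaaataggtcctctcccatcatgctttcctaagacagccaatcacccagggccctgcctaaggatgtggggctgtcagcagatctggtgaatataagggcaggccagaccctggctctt
MYOM1, chr18:3219969-3220138, minus strand: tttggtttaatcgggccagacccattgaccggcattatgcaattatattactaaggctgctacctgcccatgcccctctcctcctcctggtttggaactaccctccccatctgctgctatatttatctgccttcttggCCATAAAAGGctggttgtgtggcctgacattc
ACTN2, chr1:236686329-236686498, plus strand: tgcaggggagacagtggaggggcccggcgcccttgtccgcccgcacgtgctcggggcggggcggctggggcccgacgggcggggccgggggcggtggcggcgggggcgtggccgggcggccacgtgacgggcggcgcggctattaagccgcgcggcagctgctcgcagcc
MYOZ2, chr4:119135662-119135831, plus strand: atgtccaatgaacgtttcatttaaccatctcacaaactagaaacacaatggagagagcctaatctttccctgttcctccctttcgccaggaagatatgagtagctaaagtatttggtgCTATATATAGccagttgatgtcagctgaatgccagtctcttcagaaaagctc
The search covered both strands of the 250 bases before each start. A MEF2 motif began 167 bases before the start of TTN and 52 bases before that of MYOZ2, and 2.8% of all 35116 promoters of the same length hold one. A CArG box began 32 bases before the start of MYOM1 and 57 bases before the first listed start of LDB3, and 1.16% of all promoters hold one. The window of ACTN2 holds neither, nor do the 5 listed windows of NEBL. TATAAA was in none of the 11 windows of these 6 genes, against 10.7% of all promoters. No window held more than 1 of these 3 motifs. The RefSeq starts of TTN and ACTN2 lie inside the longer annotated genes given below, and those of MYOZ2 and MYOM1 at the annotated gene start. None of the 4 windows shown overlaps an annotated exon of its own gene, and exons of other genes were not checked. These matches describe letters only, since binding was not measured. Of the genes with a MEF2 motif TTN fell by 1.81 and MYOZ2 fell by 0.56 on the log2 scale. Of those with a CArG box MYOM1 fell by 2.23 and LDB3 fell by 1.97, and of those with neither ACTN2 fell by 1.97 and NEBL fell by 1.96.

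TTN (ENSG00000155657, chromosome 2, 178525989 to 178830802 on the minus strand, GRCh38) was the most abundant of the 9 RNAs in counts. The control libraries held 11551, 14160, 10652, 12529 and 12981 CPM for replicates 1 to 5, and the knockdown libraries 3736, 6124, 2765, 2209 and 2755 CPM. Every knockdown library lay below every control, and knockdown replicate 2 kept 49.5% of the control mean against 17.8% to 30.2% in the other 4. On the log2 scale TTN changed by -1.81 ± 0.257 (SE; edgeR adjusted p = 3.3e-05). TTN spans 305 kb and its canonical transcript has 363 exons. When tested coding genes were split into 10 deciles by span, 90.7% of those in the longest decile were lower. Their median change was -1.81 on the log2 scale, the same value as TTN.

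Titin alone took 1.22% ± 0.137 of all counts in controls and 0.369% ± 0.197 after the knockdown (SD, n = 5). The 9 genes together took 1.99% ± 0.186 and 0.64% ± 0.303, a 3.1-fold smaller share in the knockdown. The groups did not overlap for this share, and its p was the smallest that 252 labelings allow (exact permutation test, two-sided p = 0.00794). The other 8 genes without TTN went from 0.767% ± 0.0869 to 0.271% ± 0.108, also without overlap.

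Other annotated genes overlap TTN in whole or in part. Of 9 tested ones 8 were lower and none higher, against 39.6% lower of all tested genes, with 1 not passing (ENSG00000271401, log2 fold change -0.94). TTN-AS1, the long antisense RNA across most of the titin gene, fell by 1.37 ± 0.134 (SE) on the log2 scale, from 78.3 ± 10.9 to 30.3 ± 5.33 CPM (SD, n = 5). CCDC141, which overlaps the start of the annotated TTN gene on the same strand, fell by 1.90, from 123 to 32.9 CPM. Of the 8 tested opposite-strand genes 7 were lower, ENSG00000270277, ENSG00000279598, ENSG00000270574, ENSG00000271011, ENSG00000270956 and ENSG00000267784 besides TTN-AS1, by 0.78 to 2.22 on the log2 scale. The strand setting of the counting is not given in the sources used here, so reads of TTN and of the genes opposite to it may not be separated, and the values of these overlapping genes are uncertain.

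ACTN2 (ENSG00000077522, chromosome 1, 236664141 to 236764631, plus strand) encodes alpha-actinin 2, the crosslinker of actin and titin that builds the Z-disc. It stood at 2738, 2766, 1781, 2294 and 1856 CPM in control replicates 1 to 5 and at 481, 1026, 491, 421 and 496 CPM in the knockdown replicates. No knockdown library reached the lowest control, and control replicates 3 and 5 were the lowest of their group. ACTN2 was 3.92-fold lower, a log2 change of -1.97 ± 0.252 (SE; edgeR adjusted p = 1.4e-05). The widely expressed relatives ACTN1 and ACTN4, on the list of other Z-disc genes and named after their values were seen, both fell by 1.42, from 299 to 111 CPM and from 230 to 85.8 CPM.

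LDB3 (ENSG00000122367, chromosome 10, 86666785 to 86736072, plus strand) encodes a PDZ and LIM domain protein, also called ZASP or Cypher, that binds alpha-actinin. Control replicates 1 to 5 held 1658, 1814, 1501, 1729 and 1624 CPM and the knockdown replicates 384, 645, 368, 328 and 401 CPM. The groups were far apart and the control libraries close together, with a coefficient of variation of 7.04%. LDB3 changed by -1.97 ± 0.177 on the log2 scale (SE; edgeR adjusted p = 8.02e-07). A protein-coding locus on the same strand, ENSG00000289258, overlaps LDB3 with under 1 CPM (log2 fold change -0.82, not passing), which makes the counts of both uncertain where they overlap.

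NEBL (ENSG00000078114, chromosome 10, 20779973 to 21293011, minus strand) encodes nebulette, which binds actin near the Z-disc of heart muscle. Its control level was 1856, 2053, 1703, 1898 and 1722 CPM, and its knockdown level 428, 874, 372, 303 and 395 CPM, in replicates 1 to 5. Knockdown replicate 2 held more than 2-fold the level of the others, and still lay below all controls. The change of NEBL was -1.96 ± 0.253 on the log2 scale (SE; edgeR adjusted p = 1.51e-05). By annotation NEBL has the longest span of the 9, 513 kb, and lay 0.15 below the median of the longest decile. Its listed RefSeq starts lie inside that span, from 20897311 to 21174931. Which starts were in use was not measured, so its decile depends on the annotation.

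MYOZ2 (ENSG00000172399, chromosome 4, 119135832 to 119187789, plus strand) encodes calsarcin 1, which ties the phosphatase calcineurin to alpha-actinin. It held 419, 429, 287, 352 and 302 CPM in control replicates 1 to 5 and 189, 281, 240, 267 and 237 CPM in the knockdown replicates. The groups were next to each other with little space between, since knockdown replicate 2 reached nearly the level of control replicate 3. MYOZ2 changed by -0.56 ± 0.144 on the log2 scale (SE; edgeR adjusted p = 0.00334), and by -0.36 under upper-quartile scaling, which raises all genes by 0.20.

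CSRP3 (ENSG00000129170, chromosome 11, 19182030 to 19210571, minus strand) encodes muscle LIM protein, a Z-disc and stretch-related adaptor. Its control libraries were split, with 597, 583 and 411 CPM in replicates 1, 2 and 4 and 207 and 206 CPM in replicates 3 and 5. The knockdown libraries held 189, 488, 215, 208 and 197 CPM. Control replicates 3 and 5 thus lay within the range of the knockdown group, and knockdown replicates 2, 3 and 4 within the range of the controls. CSRP3 had a log2 fold change of -0.63 ± 0.36 (SE) and did not pass. Without knockdown replicate 2 it was -1.0 and passed (adjusted p = 0.0136, edgeR), while over all alternatives tried the adjusted p was 0.0136 to 0.273. The antisense gene CSRP3-AS1 was at 0.327 ± 0.133 and 0.175 ± 0.0587 CPM (SD, n = 5, log2 fold change -0.88, adjusted p = 0.0429, edgeR). That call was lost in 8 of the 10 fits with 1 library left out, all but those without control replicate 3 or knockdown replicate 2. It was also lost with DESeq2, limma-voom, upper-quartile scaling and no filter, and its counts are uncertain for the same reason as those of TTN-AS1.

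TCAP (ENSG00000173991, chromosome 17, 39665349 to 39666554, plus strand) encodes telethonin, which caps a pair of titin ends in the Z-disc. Its control libraries held 102, 106, 45.0, 82.8 and 58.4 CPM and its knockdown libraries 320, 326, 396, 433 and 398 CPM, in replicates 1 to 5. All knockdown libraries were at least 3 times the highest control, and the lowest among them were replicates 1 and 2, the libraries nearest to the controls over all genes. TCAP changed by 2.25 ± 0.222 on the log2 scale (SE; edgeR adjusted p = 1.61e-06). TCAP spans 1.21 kb with 2 exons. In the shortest decile by span 70.8% of tested coding genes were higher and 10.1% were lower. The median of that decile was 0.89, and TCAP lay 1.36 above it.

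Skeletal muscle also makes much TCAP. Of 13 skeletal muscle markers 7 were tested and 5 of them were higher, against 40.1% of all tested genes, namely MYOG, MYH3, TNNI2, TNNT3 and TNNC2. The summed level of all listed skeletal muscle markers, tested or not, was small, 11.2 to 13.9 CPM in controls and 16.1 to 19.2 CPM after the knockdown. MYOD1, MYF5 and MYF6, the other factors that determine skeletal muscle, had fewer than 10 counts over all 10 libraries. The 40.1% is not matched for gene span, and any part of skeletal muscle cells in the level of TCAP was not tested.

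Of 9 tested genes within 100 kb of TCAP, 4 rose, 4 fell and 1 did not pass, close to the 40.1% and 39.6% of all tested genes. PNMT, the enzyme that makes adrenaline, starts 1.43 kb downstream of TCAP and rose by 1.73 ± 0.168 (SE) on the log2 scale, from 4.83 ± 0.514 to 16.0 ± 3.65 CPM (SD, n = 5). PPP1R1B rose by 2.71 and MIEN1 by 1.96, and IKZF3 by 1.5 from 35 counts in all control libraries. STARD3, which ends 1.15 kb upstream of TCAP, fell by 1.03, PGAP3 by 1.62, the receptor kinase gene ERBB2 by 0.62 and CDK12 by 0.41. GRB7 had a log2 fold change of 0.26 and did not pass. PNMT, MIEN1 and PPP1R1B span 2.5, 2.04 and 9.89 kb, the 4 that fell 25.7 to 106 kb, and IKZF3, which rose, 107 kb. PGAP3 and MIEN1 each overlap ERBB2 in part, which makes the counts of these 3 genes uncertain.

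MYOM1 (ENSG00000101605, chromosome 18, 3066807 to 3219968, minus strand) encodes myomesin 1, the main crosslinker of myosin and titin at the M-band. It held 1328, 1351, 1012, 1144 and 1016 CPM in control replicates 1 to 5 and 200, 464, 207, 159 and 219 CPM in the knockdown replicates. It had the largest fall of the 9, 4.68-fold, a log2 change of -2.23 ± 0.263 (SE; edgeR adjusted p = 7.16e-06). Knockdown replicate 2 kept 39.7% of the control mean and the other 4 kept 13.6% to 18.7%. Its log2 fold change lay 1.04 below the median of coding genes in its span decile, -1.19.

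MYOM2 (ENSG00000036448, chromosome 8, 2045046 to 2165552, plus strand) encodes M-protein, the M-band crosslinker of fast skeletal and mature heart muscle. It was the scarcest of the 9, with 289 to 936 counts per library. The control libraries held 21.2, 21.7, 22.9, 21.5 and 19.2 CPM and the knockdown libraries 7.67, 13.7, 8.92, 8.76 and 9.67 CPM. The groups did not overlap, and the controls lay close together. MYOM2 changed by -1.13 ± 0.142 on the log2 scale (SE; edgeR adjusted p = 1.27e-05). That was 0.06 above the median of its span decile, the one that also holds MYOM1.

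Counted over the 9 genes, all knockdown libraries lay below all controls in 7, against 33.8% of tested genes, and above them in 1, against 33.7%. The groups were apart in either direction in 8, against 67.5%. Without knockdown replicates 1 and 2 together the same 7 and 1 were called, with log2 fold changes of -2.27 for TTN, -2.59 for MYOM1 and 2.37 for TCAP.

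**Figure D2:**
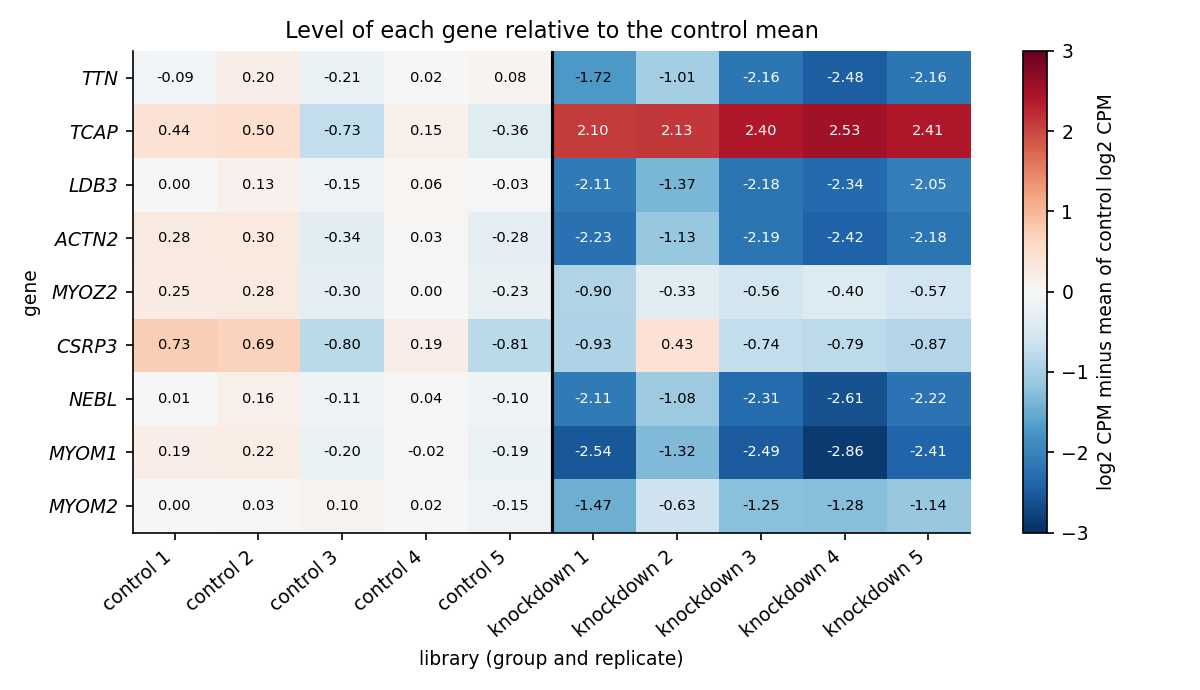
Log2 CPM of each gene (rows) in each library (columns) minus the mean of the control log2 CPM, with the value in each cell and blue for lower, red for higher. The MYOM1 row runs from -1.32 in knockdown replicate 2 to -2.86 in replicate 4, and the CSRP3 row from -0.81 to 0.73 within the controls.

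The 5 knockdown libraries did not lie at 1 level. Knockdown replicate 2 was the highest knockdown library in 8 of the 9 genes. Relative to the mean of the other 4 knockdown libraries it was higher by 1.12 (TTN), 1.12 (ACTN2), 1.23 (NEBL), 1.25 (MYOM1) and 1.27 (CSRP3) on the log2 scale, and by 0.81 for LDB3, 0.65 for MYOM2 and 0.28 for MYOZ2. For TCAP, which rose, it was 0.24 lower. Replicate 4 was the lowest for TTN, LDB3, ACTN2, NEBL and MYOM1, and the highest for TCAP. Within the controls the spread was not the same for all genes. The range on the log2 scale was 1.53 for CSRP3 and 1.24 for TCAP, and 0.25 to 0.63 for the other 7. For TCAP, ACTN2, MYOZ2 and MYOM1 the lowest control was replicate 3, followed by replicate 5, and for CSRP3 these were also the lowest 2.

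**Figure D3:**
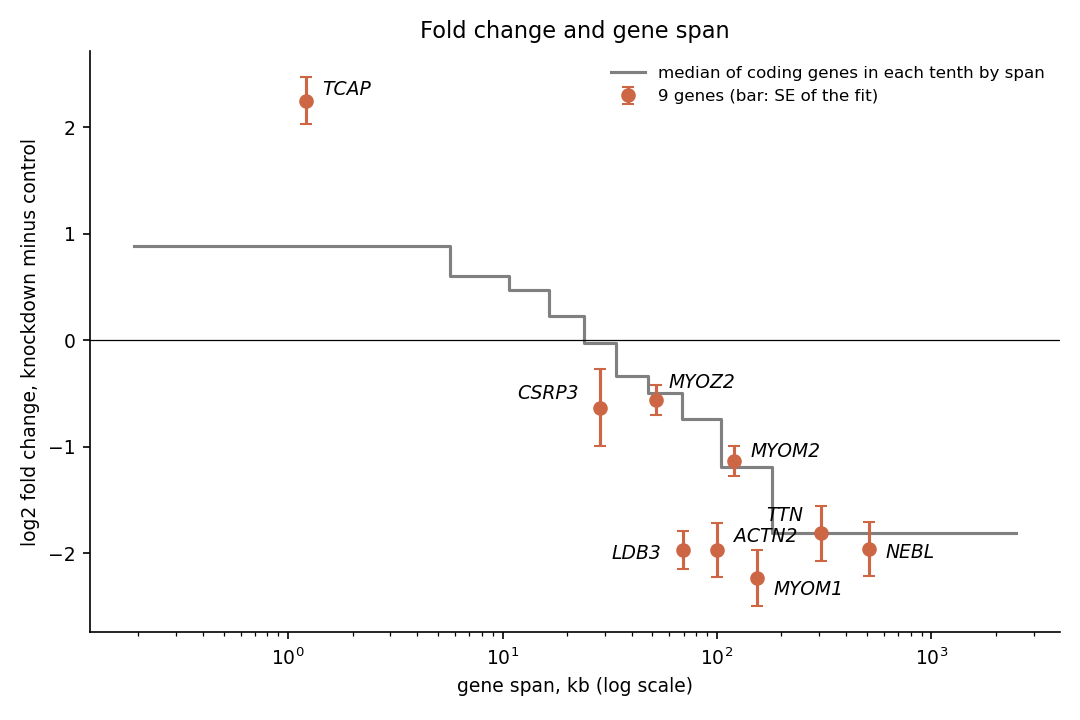
Log2 fold change (vertical axis, bar: SE) against gene span in kb (horizontal log axis) for the 9 genes, with the median of all tested coding genes in each span decile as a grey step. TTN and NEBL sit near the step at -1.81, LDB3, ACTN2 and MYOM1 lie 1.04 to 1.23 below theirs, and TCAP lies 1.36 above.

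Set beside coding genes of like annotated span, the 9 genes lay at different distances from the median, given here as a description. TTN, NEBL, MYOZ2 and MYOM2 lay within 0.15 of the median of their span decile (differences of 0.0, -0.15, -0.07 and 0.06). LDB3 and ACTN2 (both -1.23), MYOM1 (-1.04) and CSRP3 (-0.61) lay below it. TCAP lay above it. Over all tested coding genes the median went from 0.89 in the shortest to -1.81 in the longest decile, and the part of span in the values of these 9 was not tested.

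Ratios between genes of the same library need no scaling between libraries. TCAP had 8.79, 7.49, 4.22, 6.61 and 4.5 counts per 1000 counts of TTN in control replicates 1 to 5, and 85.6, 53.3, 143, 196 and 145 in the knockdown replicates. The ratio of the titin cap to titin thus differed by 4.22 on the log2 scale, 18.6-fold, and the lowest knockdown library was far above the highest control (exact permutation test, two-sided p = 0.00794, adjusted p = 0.0139 over 7 ratios). The smallest adjusted p these 7 tests gave was 0.0139, shared by 4 ratios. TCAP lies in the shortest decile by span, where the median log2 fold change was 0.89, and TTN in the longest, with -1.81. The part of span in this ratio was not tested. Ratios of other gene pairs were not computed, so no background share stands beside these 7.

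Among the Z-disc partners some ratios moved and others did not pass. MYOZ2 per 1000 counts of ACTN2 was 153 to 163 in the 5 control libraries, the tightest ratio of the 7, and 274 to 635 in the knockdown libraries, a difference of 1.48 on the log2 scale (exact permutation test, adjusted p = 0.0139). CSRP3 per 1000 counts of ACTN2 rose from 111 to 218 in control to 393 to 494 in knockdown libraries, a difference of 1.45 without overlap (exact permutation test, adjusted p = 0.0139). CSRP3, which did not pass on its own level, was thus higher relative to ACTN2 in every knockdown library. The ratio LDB3/ACTN2 was 606 to 875 per 1000 in control and 629 to 808 in knockdown libraries, a difference of 0.02 (exact permutation test, adjusted p = 0.913). NEBL/ACTN2 was 678 to 956 and 719 to 890 per 1000, a difference of -0.03 (exact permutation test, adjusted p = 0.889).

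At the M-band MYOM1 fell more than TTN. There were 78.3 to 115 counts of MYOM1 per 1000 of TTN in control and 53.5 to 79.5 in knockdown libraries, a difference of -0.42 with overlap of the groups (exact permutation test, adjusted p = 0.0222). MYOM2 per 1000 counts of MYOM1 was 16.0 to 22.6 in control and 29.6 to 54.9 in knockdown libraries. That ratio was higher by 1.17 in the knockdown without overlap (exact permutation test, adjusted p = 0.0139), with both genes lower and MYOM1 by more.

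**Figure D4:**
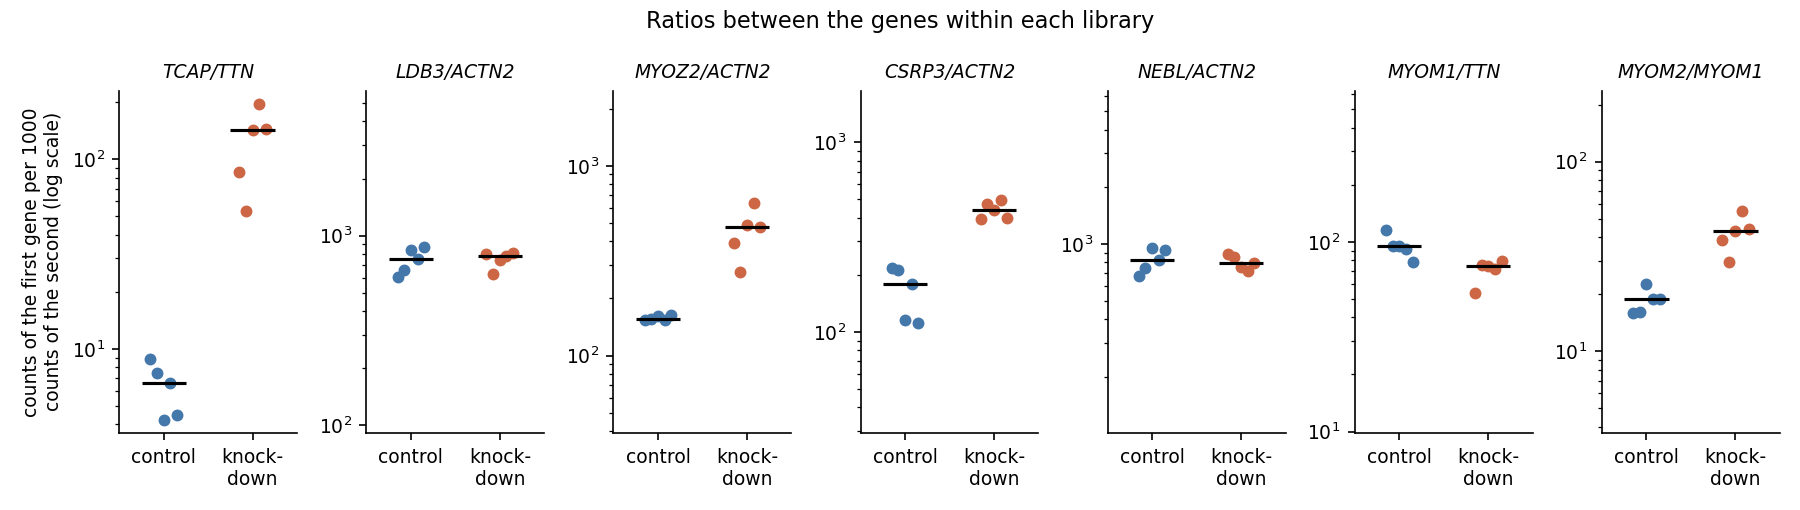
Counts of the first gene per 1000 counts of the second (vertical log axis) for 7 ratios, in control (blue) and knockdown (red) libraries, with a line at the median. TCAP/TTN goes from 6.61 to 143 at the median, while LDB3/ACTN2 (754 and 778) and NEBL/ACTN2 (827 and 797) overlap.

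Levels of different genes were compared per length, as counts per kb of all annotated exons, scaled so that each library sums to 1e6 (TPM). In control libraries the order by mean was CSRP3 (819 ± 352), MYOM1 (617 ± 55.3), LDB3 (538 ± 42.7), MYOZ2 (475 ± 62.9), ACTN2 (431 ± 66.1), TTN (355 ± 47.9), NEBL (353 ± 23.2), TCAP (276 ± 80.9) and MYOM2 (10.3 ± 0.628 TPM, SD, n = 5). The ranges of the 5 control libraries overlapped for every pair of neighbours in that order from CSRP3 to TCAP. Such ranges do not compare the genes of a pair within each library, so they do not show whether neighbours differed there. MYOM2, at 9.43 to 11.2 TPM, was far below TCAP at 162 to 363 TPM. In knockdown libraries TCAP came first with 1118 ± 82.5 TPM, followed by CSRP3 (486 ± 328), MYOZ2 (277 ± 66.0), LDB3 (122 ± 58.1), MYOM1 (119 ± 79.5), ACTN2 (99.4 ± 60.5), TTN (91.8 ± 57.7), NEBL (82.4 ± 54.6) and MYOM2 (4.10 ± 1.63 TPM, SD, n = 5). There the ranges of TCAP and CSRP3, of CSRP3 and MYOZ2, and of LDB3, MYOM1, ACTN2, TTN and NEBL overlapped, while MYOZ2 (239 to 394 TPM) lay above LDB3 (72.2 to 218 TPM). TCAP thus went from position 8 to position 1. The order among the others depends on the length used. Per kb of the canonical transcript, which is 4.87 kb for ACTN2 against 17.9 kb of all exons, ACTN2 came first in control libraries with 1032 TPM, and TCAP again went from position 8 (180 TPM) to position 1 (734 TPM).

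Of 30 other Z-disc genes listed and tested, 20 were lower, 4 higher and 6 did not pass. Of all tested genes 39.6% were lower and 40.1% higher. The median log2 fold change of the 30 was -1.02. CAPZB, a subunit of the protein that caps actin ends at the Z-disc, was 4.08-fold lower, at 226 ± 16.2 CPM in controls and 55.2 ± 12 CPM after the knockdown (SD, n = 5). PGM5 was 5.35-fold lower, at 187 ± 3.31 and 35 ± 13.3 CPM. The rises with the smallest p were in the relatives of MYOZ2. MYOZ3 rose 5.68-fold, from 4.10 ± 1.52 to 23.4 ± 2.97 CPM, and MYOZ1 2.83-fold, from 3.79 ± 1.42 to 10.7 ± 0.879 CPM (SD, n = 5). The calsarcin genes therefore moved in different directions, and MYOZ2 remained the most abundant of them in counts.

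Of 18 other M-band and titin-associated genes 13 were lower and 3 higher, against 39.6% and 40.1% of all tested genes. The median of the 18 was -0.84. OBSL1, a cytoskeletal linker that binds titin and myomesin, was 2.54-fold lower, at 267 ± 20.6 and 105 ± 26.2 CPM (SD, n = 5). TRIM63, the ubiquitin ligase MuRF1 that binds titin at the M-band, rose 2.13-fold, from 141 ± 12.5 to 301 ± 19.0 CPM. CKM, the muscle creatine kinase, rose 1.53-fold. SQSTM1, also on this list and named after its values were seen, rose by 0.43 on the log2 scale.

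Factors that assemble the sarcomere were lower in 11 of 17 and higher in 2, with a median of -0.92. This list and the filament lists below stand against 39.6% lower and 40.1% higher of all tested genes. FHOD3, a formin that builds cardiac actin filaments, was 8.66-fold lower, at 686 ± 22.6 and 79.1 ± 46.4 CPM (SD, n = 5), and TMOD1, which caps the pointed end of actin, 4.06-fold. KLHL40 rose by 3.18 on the log2 scale from 0.253 CPM in control libraries, and the chaperone gene UNC45A rose 1.25-fold. In the thick filament 5 of 9 tested genes were lower and 1 higher (median -0.77). MYBPC3, cardiac myosin binding protein C, fell 4.93-fold and MYH6 fell by 1.79 on the log2 scale, while MYBPHL rose 4.1-fold from 0.961 CPM. In the thin filament 8 of 10 were lower and 1 higher (median -0.93), and TNNT2 fell by 1.57 and TPM1 fell by 1.45 on the log2 scale. TPM2 rose by 0.43 with overlap of the groups, a call lost without any one of control replicates 3, 4 and 5 or knockdown replicates 3, 4 and 5.

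Splicing of titin is set by RBM20 and other RNA-binding proteins. Of 14 such regulators 9 were lower and 3 higher, against 39.6% and 40.1% of all tested genes. The median of the 14 was -1.20. CELF1 was 3.73-fold lower, at 273 ± 14.5 and 73.1 ± 12.4 CPM, and CELF2 3.83-fold lower, at 221 ± 8.12 and 57.6 ± 16.6 CPM (SD, n = 5). SRSF5 rose 4.51-fold, from 87.7 ± 12.2 to 396 ± 63.4 CPM, and SRSF1 2.22-fold. RBM20 itself, named after its values were seen, fell by 2.32 on the log2 scale, from 482 to 96.4 CPM. Gene counts do not show which titin isoforms were made.

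The list of calcineurin and NFAT partners of the Z-disc holds genes of the signalling route that calsarcin 1 restrains, and others such as PRKCA, PRKCE, AKAP5 and FHL2 that are neither calcineurin nor NFAT genes. Of its 15 genes 11 were lower and 1 higher, with a median of -1.27. NFATC3 was 3.93-fold lower, at 51.8 ± 1.99 and 13.2 ± 3.3 CPM, and the kinase gene PRKCE 5.36-fold lower, at 23.5 ± 1.17 and 4.36 ± 1.08 CPM (SD, n = 5). AKAP5, an anchoring protein for kinases and calcineurin, rose 2.28-fold. With upper-quartile scaling 10 were lower and 3 higher. The share of lower genes in all 7 lists is read against the 39.6% of all tested genes, which is not matched for span. The longest median spans were 169 kb for the splicing regulators and 133 kb for the calcineurin list. Of tested coding genes of 105 to 181 kb, 80.7% were lower, with a median of -1.19. The other Z-disc and M-band lists had median spans of 52.6 and 54.8 kb. Of coding genes of 47.9 to 68.5 kb, 58.3% were lower. For the assembly and thick filament lists the median spans were 23.9 and 22.9 kb. Of coding genes of 16.4 to 24.0 kb, 30.6% were lower. The shortest median span was 13.4 kb, in the thin filament list, and 23.7% of coding genes of 10.7 to 16.4 kb were lower. The part of span in these lists was not tested. FHOD3 and FHL2 each stand on 2 of the lists.

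**Figure D5:**
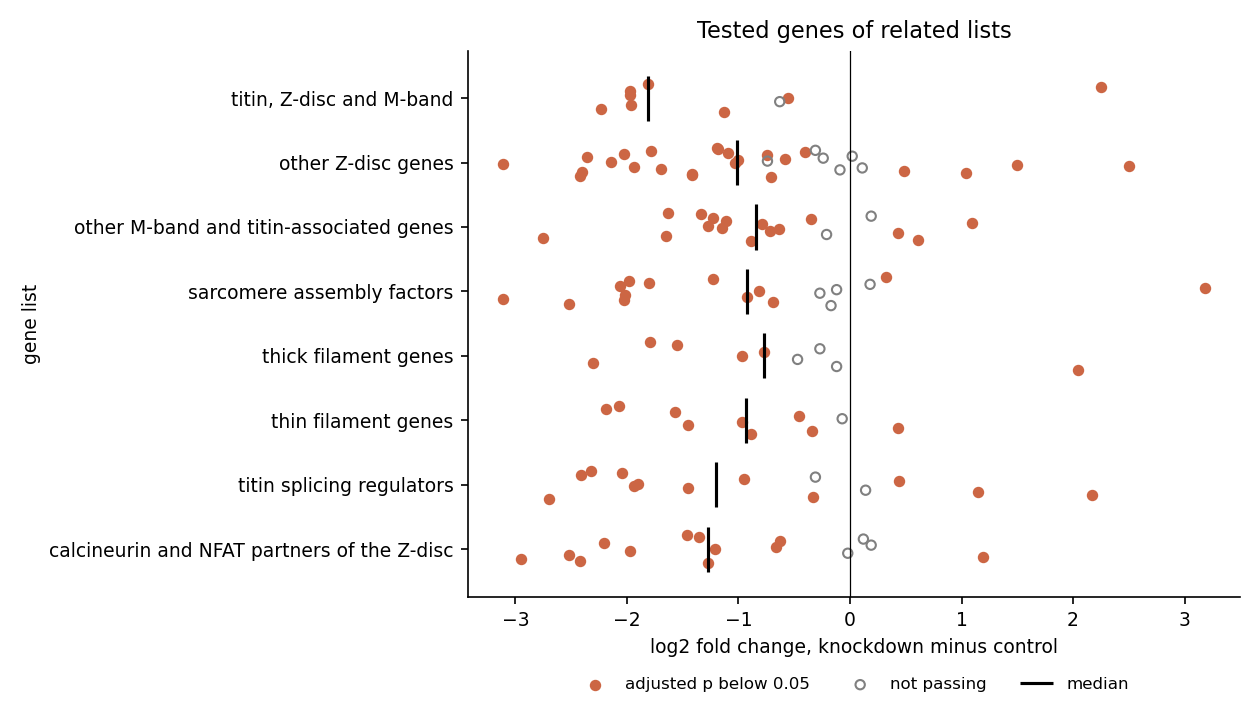
Log2 fold change (horizontal axis) of the 9 genes (top row) and of the tested genes of 7 related lists. Filled points have an adjusted p below 0.05, open points do not, and black bars mark medians, which lie between -1.27 and -0.77 for the 7 lists and at -1.81 for the 9 genes.

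Among the coding genes whose log2 CPM ran most closely with that of TTN over the 10 libraries were GALNT11 (Pearson r = 0.9993), UBE2K (0.999), TBC1D16 (0.9984) and SPSB4 (0.9984), out of 9611 genes with a mean of at least 10 CPM. Those closest to TCAP were ACYP1 (0.9947), ESYT1 (0.9945), PDPN (0.9944), CKB (0.9936) and ATIC (0.9929). These values describe 10 libraries that fall into 2 groups, so the group difference carries most of each correlation. GALNT11 fell from 30.2 to 9.15 CPM and SPSB4 from 45.0 to 8.09 CPM. ACYP1 rose from 5.20 to 16.9 CPM and CKB, the brain-type creatine kinase, from 182 to 401 CPM.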

How the data were processed

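Total RNA of 10 libraries was sequenced after removal of ribosomal RNA, with a strand-specific kit, per the labels' protocols. The authors deposited raw counts of reads per gene, made with Trim Galore 0.65, STAR 2.7.0 on GRCh38 and HTSeq, per the submitters' processing notes. The design text names GENCODE 38. For HTSeq, version and strand option: not given in the sources used here. Groups and replicate numbers came from the titles. Of 78932 identifiers 61481 matched GENCODE 44 (GRCh38), which gave names, spans and exons. The others held 0.25% to 0.408% of counts.

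Counts were scaled with TMM factors and compared by edgeR 4.0.16 in R 4.3.3 (quasi-likelihood F test, filterByExpr, robust dispersions, Benjamini-Hochberg over 21033 genes, threshold 0.05). CPM use these scaled library sizes. The standard error is the log2 fold change over the square root of F. TMM sets the bulk of genes to no change, so each fold change is relative to it. Ratios and shares were compared with exact permutation tests (scipy 1.17.1). Every pair of libraries differed by more than counting noise (chi-square over its degrees of freedom at least 4.47). Nothing says that replicates were separate cultures, so the spread behind the p-values may be technical. On data simulated for the knockdown against control comparison (19452 genes tested) the test recovered 28.4%, 80.6% and 100% of genes changed 1.5-fold, 2-fold and 4-fold, with 9 false calls among 148. Only 67, 67 and 66 genes were changed there. In the deposited data 79.7% of tested genes passed, so these recovery rates need not hold for them.

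The 9 genes, the lists and the alternatives were chosen with earlier results of these data known. Named genes are the 9, up to 2 rises and 2 falls with the smallest p per list, tested genes overlapping the 9 or within 100 kb of TCAP, and the 5 coding genes most alike to TTN and to TCAP (log2 of CPM plus 0.01), unless said otherwise. Some genes that meet these rules are not reported here. Counting error is the only error that depth covers here, and 1 count stood for about 0.026 CPM. Alternatives were DESeq2 1.42.0, its size factors, upper-quartile factors, limma-voom (limma 3.58.1), 2 other filters, no robust dispersion, no mitochondrial genome genes, the replicate block, libraries left out, a pseudocount of 1 for ratios, and the canonical transcript's length. Figures were drawn with matplotlib 3.10.9.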

Additional observations from a re-analysis of the deposited data

Results flagged for a closer look

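Some values lay far from the others of their group, judged by the gap to the nearest library divided by the range of the group of 5 (limit 0.71). Of 34 groups looked at, 6 passed that limit, where chance flags about 1 in 20, and the genes share their libraries. Knockdown replicate 2 was far above the other knockdown libraries for CSRP3 (gap over range 0.912), ACTN2 (0.876), MYOM1 (0.804), NEBL (0.781) and LDB3 (0.77). In the ratio MYOM1/TTN knockdown replicate 1 was far below the others (0.756, with 53.5 counts of MYOM1 per 1000 of TTN against 72.2 to 79.5).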

How the results depend on the processing

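Under 20 alternatives the 8 called genes kept their direction and their call, and 7 were lower and 1 higher in all but 1, the fit without knockdown replicate 2, where CSRP3 was called as well. Leaving out 1 library at a time gave 7 to 8 lower and 1 higher genes of the 9, and 8136 to 8829 lower and 8225 to 8821 higher genes of all. The widest range of a called gene was -2.27 to -1.63 for TTN (adjusted p up to 0.000177). With the replicate block, 7 were lower and 1 higher of the 9, and 8211 lower and 8214 higher of all genes. For same-numbered libraries, deviations from the group means had r = -0.27, 0.271, 0.153, -0.0237 and -0.0319, without a common sign. For the other pairs of a control and a knockdown library r was -0.238 to 0.267. Whether same-numbered libraries shared a culture or a batch cannot be told from these values. Among named genes the block lost the calls of TPM2 and CSRP3-AS1 and gained that of ENSG00000271401.

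Without knockdown replicates 1 and 2 together, the 5 ratios that had passed kept their direction but not their call (lowest adjusted p = 0.0625, exact permutation test). With fewer libraries to permute the smallest possible p is larger, so the loss of these calls says little about the ratios. The differences were 4.72 (TCAP/TTN), 1.75 (MYOZ2/ACTN2), 1.46 (CSRP3/ACTN2), -0.32 (MYOM1/TTN) and 1.36 (MYOM2/MYOM1). With 1 library left out the 2 ratios that did not pass changed sign around 0, over -0.05 to 0.08 for LDB3/ACTN2 and -0.1 to 0.02 for NEBL/ACTN2. The calcineurin list had 3 higher genes under upper-quartile scaling against 1. Per kb of the canonical transcript the control levels were 251 (TTN), 180 (TCAP), 688 (LDB3), 1032 (ACTN2), 678 (CSRP3), 309 (MYOZ2), 458 (NEBL), 452 (MYOM1) and 9.42 TPM (MYOM2), and the knockdown levels 734 (TCAP), 239 (ACTN2) and 182 TPM (MYOZ2). The order among the genes other than TCAP depends on the length used.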
